A study of Homo sapiens with 24 samples.

Results

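The genes described here are the transcription cofactors YAP1 and WWTR1 (whose protein is called TAZ), the DNA-binding partner TEAD1, and 6 genes known as their targets or regulators: CCN1, CCN2, ANKRD1, AMOTL2, LATS2 and AJUBA. They were found by gene symbol among the 60232 Ensembl identifiers of the count table. All 9 were present, and all 9 were among the 18379 genes that passed the filter on low counts. The 9 names were selected on results of these counts already known, the differences between each compound and vehicle among them. Their levels and differences are therefore given as a description, with no test. Tests are given for other genes of the pathway, whose lists were drawn up by name but also with earlier results of these counts known, so their adjusted p values are no independent evidence.

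RNA was sequenced from the human cell line 22Rv1, an established line from a prostate carcinoma. The 3 groups were DMSO (the solvent, as vehicle control), KB02 at 200 µM and KB05 at 200 µM, each with 3 libraries from a treatment labelled as a biological triplicate. KB02 and KB05 are small molecules known by these code names. The design text gives 1 h of exposure and 2 h of recovery in fresh medium, and the sample labels name a time of 3 h, which covers both. The columns of the count table are labelled 2h. All groups share the same line, time point and library kit, and results from 1 line in culture describe that line only.

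Total counts per library were 17565188 to 19830340 in DMSO, 17216760 to 21900548 in KB02 and 15506975 to 19617207 in KB05. Levels are given as CPM, counts scaled to a common library size, with TMM factors that correct for differences in library composition. All 10 prostate luminal markers checked, KLK3 among them, passed the filter on low counts. Of 19 markers of other cell types 10 passed it, and the endothelial markers CDH5 and KDR had 0 reads. The summed level of those 19 markers lay between 268 and 311 CPM in the DMSO libraries, between 159 and 178 with KB02 and between 236 and 263 with KB05, most of it from the neuroendocrine marker SYP (247 ± 16.8, 124 ± 4.86 and 206 ± 13.9 CPM; SD, n = 3). The share of counts from mitochondrially encoded genes was 17.8 ± 0.95% for DMSO libraries, 15.5 ± 0.61% for KB02 and 14.3 ± 0.69% for KB05 (SD, n = 3). The part of these shifts in the results below was not tested.

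YAP1 and TAZ are the effectors of the Hippo pathway. When the kinases LATS1 and LATS2 are active they phosphorylate both proteins, which then stay in the cytoplasm or are degraded. When the kinases are inactive, YAP1 and TAZ enter the nucleus and bind TEAD factors, which carry them to enhancers and promoters with the TEAD motif. CCN1, CCN2 and ANKRD1 are the targets most used as readouts of that activity. AMOTL2 and LATS2 are targets that in turn restrain YAP1, and AJUBA is a LIM protein that binds LATS kinases and limits their activity. CCN1 and CCN2 are also known as immediate-early genes that respond to growth factors, stress and the actin-dependent factor SRF, so they are not readouts of TEAD alone.

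The promoter windows below show where the core TEAD motif lies in genes whose levels are described next. RefSeq promoter windows on build GRCh38.p14, from 250 bases before to 50 bases after an annotated start, matched 7 of the 9 genes. No window was available for CCN1 and TEAD1, so their promoters were not searched. The 7 genes gave 10 windows, since AMOTL2, AJUBA and WWTR1 have 2 starts each. The core TEAD motif GGAATG was searched on both strands. It is in capitals below (CATTCC where it lies on the other strand), and all sequences run 5′ to 3′ on the gene's strand, which is the minus strand of the genome in each case. The stretches are the 250 bases before the start, at chr6:131951373-131951622 for CCN2, chr10:90921088-90921337 for ANKRD1 and chr3:134374448-134374697 for the downstream start of AMOTL2, and 30 bases around the match after the start of LATS2 at chr13:21061560-21061589.
CCN2: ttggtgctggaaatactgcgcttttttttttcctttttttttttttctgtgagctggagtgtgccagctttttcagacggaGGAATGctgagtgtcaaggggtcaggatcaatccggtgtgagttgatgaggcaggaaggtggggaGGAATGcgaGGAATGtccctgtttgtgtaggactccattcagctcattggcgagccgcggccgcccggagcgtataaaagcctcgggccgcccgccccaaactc
ANKRD1: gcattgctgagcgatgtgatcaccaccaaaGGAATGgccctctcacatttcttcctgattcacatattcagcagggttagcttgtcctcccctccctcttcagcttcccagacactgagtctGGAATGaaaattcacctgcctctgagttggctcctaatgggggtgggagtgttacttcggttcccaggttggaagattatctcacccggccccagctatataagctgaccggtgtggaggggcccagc
AMOTL2: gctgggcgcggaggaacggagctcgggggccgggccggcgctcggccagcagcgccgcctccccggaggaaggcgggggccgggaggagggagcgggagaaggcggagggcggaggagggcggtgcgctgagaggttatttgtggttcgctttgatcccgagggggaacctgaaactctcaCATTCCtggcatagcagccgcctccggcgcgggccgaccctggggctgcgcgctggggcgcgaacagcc
LATS2: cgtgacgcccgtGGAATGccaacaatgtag

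The CCN2 window held 3 matches, which begin at -169, -104 and -95 counted from the start as 0. Of 35116 windows of the same length, 14.0% held the motif at least once, 1.37% at least 2 times and 45 windows (0.128%) at least 3 times. ANKRD1 held 2 matches, at -220 and -128. AMOTL2 held 1 at its downstream start, LATS2 1 at 9 bases after the start, YAP1 1 at -162 and AJUBA 1 at -59 of its downstream start. WWTR1 had none in either window. TGANTCA, a loose form of the AP-1 motif with any base at N, lay once in the ANKRD1 window, at -195, and in no other of the 10. Of all windows 7.71% held this loose form. The ANKRD1 match reads TGATTCA, without the C or G that the usual AP-1 motif has at N, so none of the 10 windows held that stricter form. The cAMP-response motif TGACGTCA and the CArG box of SRF were found in none of the 10 windows, against 1.85% and 1.29% of all windows. These are letter matches, and no match in such a short window says nothing about more distant sites.

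**Figure D1:**
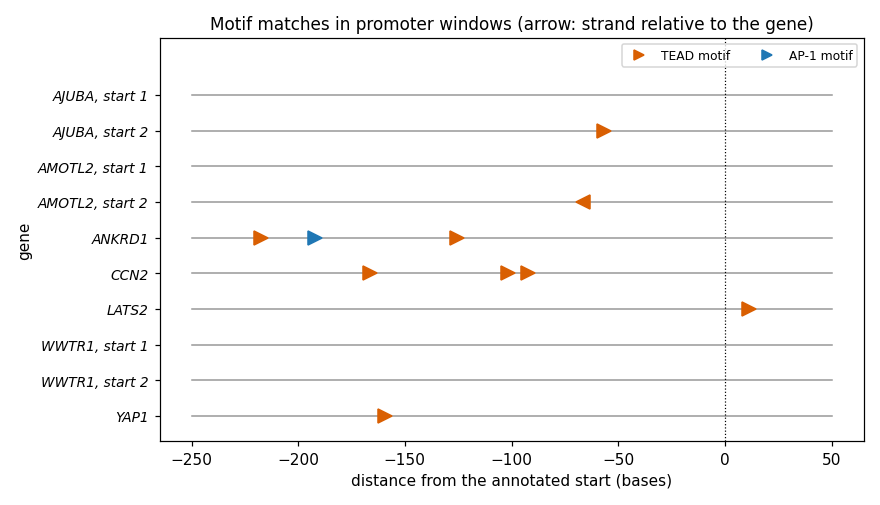
Motif matches in 10 promoter windows of 7 genes, by distance in bases from the annotated start. The AP-1 match is to the loose form TGANTCA, with any base at N. Arrows give the strand relative to the gene, and CCN2 carries 3 TEAD motif matches and ANKRD1 2, while the other windows hold 1 or none.

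CCN1, which encodes a secreted matrix-associated protein that signals through integrins (ENSG00000142871.18, protein-coding, chromosome 1, 85580761 to 85583962, GRCh38), was the gene of this group with the largest level under KB05. Its level was 21.5, 25.6 and 22.8 CPM in the DMSO libraries, 34.0, 34.5 and 30.5 CPM in KB02 and 160, 166 and 163 CPM in KB05. The 3 groups did not overlap, and the KB05 libraries lay close together and far above both other groups. The mean was 23.3 ± 2.08 CPM in DMSO, 33.0 ± 2.17 in KB02 and 163 ± 3.20 in KB05 (SD, n = 3). The log2 difference from DMSO was 0.51 ± 0.08 (SE) with KB02, or 1.42-fold, and 2.81 ± 0.08 with KB05, or 7.0-fold.

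CCN2, formerly CTGF, encodes a related secreted protein of connective tissue growth (ENSG00000118523.6, protein-coding, chromosome 6, 131948176 to 131951373, GRCh38). Under KB02 it differed from DMSO in the other direction than CCN1. The CCN2 level was 30.1, 25.9 and 22.9 CPM in DMSO, 7.63, 6.26 and 4.88 in KB02 and 57.1, 57.5 and 46.8 in KB05. No library of one group reached the range of another: KB02 was lowest and KB05 highest. With KB02 CCN2 was 4.17-fold lower than in DMSO (log2 difference -2.06 ± 0.14, SE), and with KB05 2.04-fold higher (1.03 ± 0.12). An antisense gene overlaps CCN2, but it held 5, 9 and 6 reads summed over the DMSO, KB02 and KB05 libraries, against 88 or more reads of CCN2 in any library.

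The balance of both CCN genes therefore differed between groups. The ratio of CCN1 to CCN2 counts within a library was 0.715 to 0.995 in DMSO, 4.46 to 6.26 in KB02 and 2.80 to 3.48 in KB05. It was above 1 in every treated library and below 1 in every DMSO library. In KB02 this came with a lower CCN2 and a slightly higher CCN1, and in KB05 with more of both.

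ANKRD1, a nuclear ankyrin-repeat protein first known from heart muscle (ENSG00000148677.7, chromosome 10, 90912096 to 90921276), was barely expressed. It had 26, 20 and 6 reads in the DMSO libraries, 15, 3 and 10 in KB02 and 18, 17 and 16 in KB05. DMSO overlapped both treated groups, while KB02 and KB05 did not overlap. The log2 difference from DMSO was -1.07 ± 0.51 (SE) with KB02 and 0.07 ± 0.48 with KB05. As single libraries were left out, the KB02 value ran from -1.43 to -0.58 (-0.68 without DMSO replicate 1, -0.58 without KB02 replicate 2) and the KB05 value from -0.29 (without DMSO replicate 3) to 0.46 (without DMSO replicate 1).

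**Figure D2:**
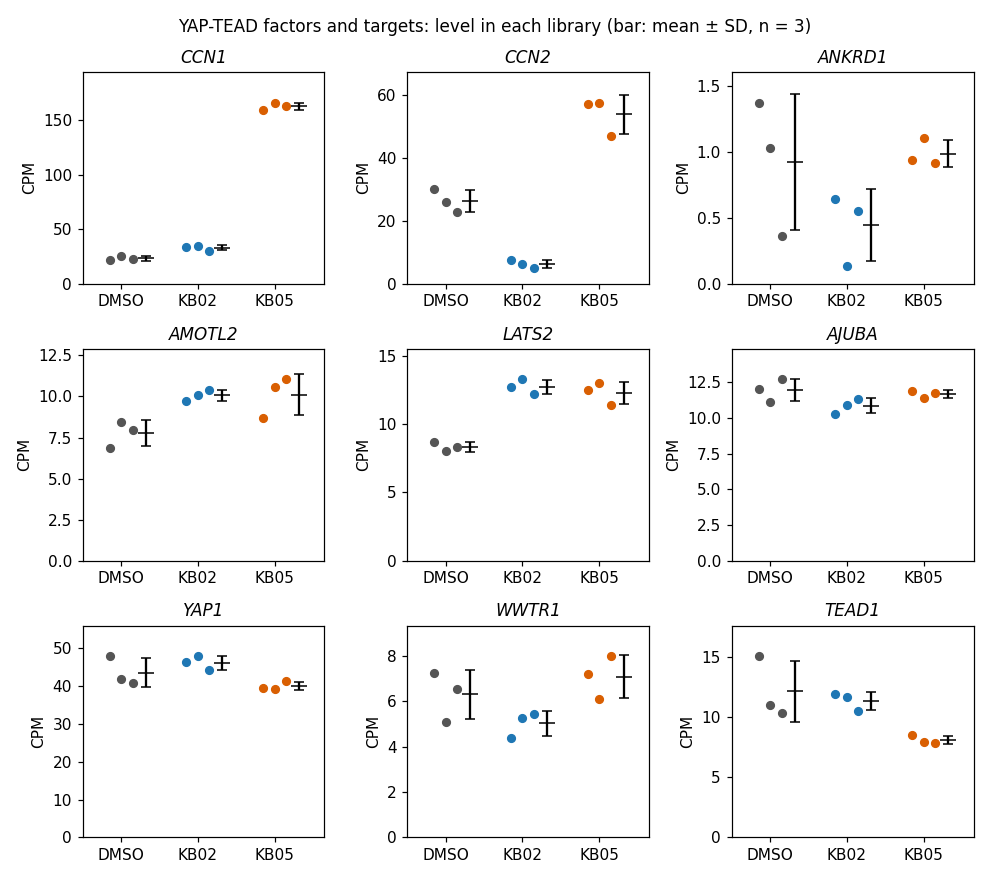
Level of each gene in CPM (linear axis from 0) in the 9 libraries, with points for libraries and a bar for the mean ± SD of 3. CCN1 and CCN2 separate all 3 groups, AMOTL2 and LATS2 separate both compounds from DMSO, and YAP1 lies between 39.3 and 47.9 CPM throughout.

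AMOTL2 and LATS2, the targets that restrain YAP1, were both higher with either compound and at similar levels in KB02 and KB05. LATS2, the Hippo kinase (ENSG00000150457.9, chromosome 13, 20973032 to 21061547), was at 8.68, 8.00 and 8.33 CPM in DMSO, 12.8, 13.3 and 12.2 in KB02 and 12.5, 13 and 11.4 in KB05. All 6 treated libraries lay above all 3 DMSO libraries. The log2 difference from DMSO was 0.62 ± 0.12 (SE) with KB02 and 0.56 ± 0.12 with KB05.

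AMOTL2, a scaffold of cell junctions that holds YAP1 in the cytoplasm (ENSG00000114019.15, chromosome 3, 134355874 to 134375479), was at 6.88, 8.42 and 7.96 CPM in DMSO. It was at 9.74, 10.1 and 10.4 CPM in KB02 and at 8.70, 10.6 and 11 in KB05. Again no treated library fell within the DMSO range, although the lowest KB05 library was close to it. The log2 difference was 0.38 ± 0.13 (SE) with KB02 and 0.38 ± 0.14 with KB05.

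AJUBA, the LIM protein (ENSG00000129474.16, chromosome 14, 22971174 to 22982642), was at 12, 11.2 and 12.7 CPM in DMSO, 10.3, 10.9 and 11.4 in KB02 and 11.9, 11.4 and 11.8 in KB05. DMSO overlapped both treated groups. The log2 difference from DMSO was -0.14 ± 0.12 (SE) with KB02 and -0.03 ± 0.12 with KB05. A protein-coding gene of the same strand overlaps AJUBA and held 155, 205 and 184 reads over the libraries of the 3 groups, so the division of reads between the 2 genes is uncertain.

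The transcripts of both cofactors overlapped DMSO with either compound. YAP1 (ENSG00000137693.14, chromosome 11, 102110461 to 102233423) was at 47.9, 41.9 and 40.8 CPM in DMSO, 46.3, 47.9 and 44.2 in KB02 and 39.5, 39.3 and 41.3 in KB05. Both treated groups overlapped DMSO, and KB05 lay below KB02. The log2 difference from DMSO was 0.08 ± 0.08 (SE) with KB02 and -0.12 ± 0.08 with KB05.

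WWTR1 (ENSG00000018408.15, chromosome 3, 149517235 to 149736714) was at 7.25, 5.11 and 6.57 CPM in DMSO, 4.40, 5.27 and 5.43 in KB02 and 7.19, 6.11 and 7.99 in KB05. Both treated groups overlapped DMSO, and all KB05 libraries lay above all KB02 libraries. The log2 difference from DMSO was -0.33 ± 0.17 (SE) with KB02 and 0.17 ± 0.17 with KB05. Its antisense neighbour WWTR1-AS1 held 35, 25 and 67 reads over the 3 groups. Both genes overlap in position and strandedness is not given, so how well their reads were told apart is uncertain.

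TEAD1, the DNA-binding partner (ENSG00000187079.20, chromosome 11, 12674591 to 12944483), was at 15.1, 11 and 10.4 CPM in DMSO, 11.9, 11.7 and 10.5 in KB02 and 8.49, 7.93 and 7.88 in KB05. KB05 lay below both other groups, and KB02 lay within the range of DMSO. With KB05 it was 1.5-fold lower than in DMSO (log2 difference -0.59 ± 0.14, SE). Without DMSO replicate 1, the highest library, this difference was -0.41, and that of KB02 turned from -0.10 to 0.08.

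**Figure D3:**
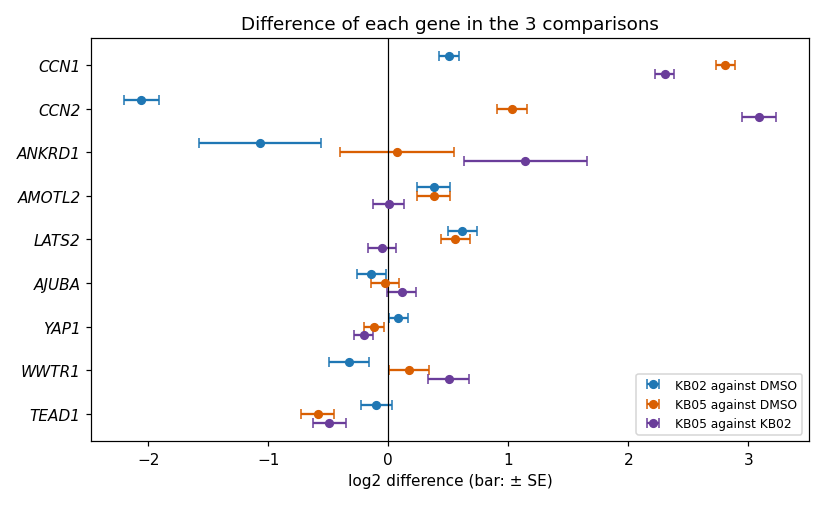
Log2 difference of each of the 9 genes in the 3 comparisons (bars: ± SE of the fit over 9 libraries). CCN2 lies at -2.06 for KB02 and 1.03 for KB05 against DMSO, CCN1 at 0.51 and 2.81, and all other differences from DMSO except that of ANKRD1 with KB02 are within ± 0.62.

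Counted over the 9 genes, the KB02 and DMSO libraries did not overlap for 4 (3 higher, 1 lower with KB02), against 53.5% of all genes tested (26.9% higher, 26.6% lower). KB05 and DMSO did not overlap for 5 (4 higher, 1 lower), against 49.2% (23.7% higher, 25.4% lower). KB05 and KB02 did not overlap for 7 (5 higher, 2 lower with KB05), against 50.3% (27.6% higher, 22.7% lower). The median log2 difference of the 9 genes was -0.10, 0.17 and 0.11 in these comparisons, beside 0.0016, -0.0025 and 0.06 over all genes. Since these differences were treated as used in the choice of the genes, nothing is read from the counts.

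At matched dose and time, 1 pair of compounds could be compared, and the CCN genes differed most between them. CCN2 was 8.50-fold higher with KB05 than with KB02 (log2 difference 3.09 ± 0.14, SE) and CCN1 4.93-fold higher (2.30 ± 0.08). TEAD1 was lower with KB05 by 0.49 ± 0.14 and YAP1 by 0.20 ± 0.08 on the log2 scale, while WWTR1 was higher by 0.50 ± 0.17. AMOTL2 and LATS2 overlapped between the compounds, with log2 differences of 0.00 ± 0.13 and -0.06 ± 0.12. AJUBA differed by 0.11 ± 0.12 with TMM factors, a difference that changed sign with library size as the only scaling (-0.0042).

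Levels of different genes can be set side by side only per length, here as CPM per kilobase of all exons of a gene in GENCODE release 29 (GRCh38). In DMSO the order ran from CCN2 (11.2 ± 1.53; SD, n = 3) and CCN1 (9.48 ± 0.85) to YAP1 (6.91 ± 0.61) and AJUBA (2.00 ± 0.13), then LATS2 (1.49 ± 0.061), AMOTL2 (1.3 ± 0.13), TEAD1 (1.18 ± 0.25), WWTR1 (0.750 ± 0.13) and ANKRD1 (0.467 ± 0.26). The ranges of the libraries overlapped for the neighbours CCN2 and CCN1, AMOTL2 and TEAD1, and WWTR1 and ANKRD1. They did not overlap for the other neighbours in that order. The lengths count every annotated exon, so a gene with long unused exons appears lower than it is.

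Among the TEAD paralogs, TEAD2 had the highest level per kilobase in DMSO, 14.4 ± 0.22, followed by TEAD4 with 7.91 ± 0.76, TEAD3 with 3.58 ± 0.39 and TEAD1 with 1.18 ± 0.25 (SD, n = 3). These differences per kilobase are larger than the spread between libraries, but that spread does not measure errors in the lengths used. TEAD1 has a greater length of annotated exons than the other TEAD genes, so its last place depends on this length. In plain CPM in DMSO the mean of TEAD1 (12.2) lay above that of TEAD3 (10.9), and their libraries overlapped. TEAD4 rose with both compounds, from 18.0 ± 1.72 CPM in DMSO to 24.3 ± 2.03 in KB02 (log2 difference 0.44 ± 0.10, adjusted p = 0.000373) and 28.7 ± 0.80 in KB05 (0.68 ± 0.10, adjusted p = 1.38e-06). TEAD2 rose with KB05, from 42.9 ± 0.65 to 53.6 ± 3.18 CPM (0.32 ± 0.08, adjusted p = 0.0024), and was at 39.0 ± 4.31 CPM in KB02 (adjusted p = 0.199). TEAD3, also picked after values were seen, did not pass the test in either comparison (log2 differences of -0.02 ± 0.13 with KB02 and -0.02 ± 0.14 with KB05; 95% intervals -0.29 to 0.25 and -0.30 to 0.26). VGLL4, a cofactor that competes with YAP1 for TEADs, rose with KB02 from 20.6 ± 2.58 to 25.6 ± 1.61 CPM (adjusted p = 0.0128). With DMSO replicate 3 left out VGLL4 was no longer called (adjusted p = 0.115), nor with KB02 replicate 3 left out (0.0632), and over 16 alternatives its adjusted p ran from 0.00117 to 0.115. VGLL1, VGLL2 and VGLL3 had 0 to 6 reads over all libraries.

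Of 75 pathway genes in 6 lists, 66 passed the filter, and 16 rose and 24 fell with KB02, or 60.6% of them, against 46.1% of all genes tested (22.8% higher, 23.3% lower). With KB05 11 rose and 16 fell, or 40.9%, against 39.8% (18.7% higher, 21.1% lower). The median log2 difference of the 66 was -0.14 with KB02 and -0.10 with KB05, beside 0.0016 and -0.0025 over all genes. With library size as the only scaling, 20 rose and 18 fell with KB02, where 63.8% of the calls over all genes were higher (49.5% with TMM factors). With KB05 11 rose and 11 fell, where 50.1% of the calls over all genes were higher (46.9% with TMM factors). The pathway calls and the calls over all genes thus both shifted with the scaling.

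Of 15 tested genes known from signatures of YAP activity, 8 fell and 2 rose with KB02 (median -0.47), or 66.7% called against 46.1% of all genes (22.8% higher, 23.3% lower). With KB05 6 fell and 2 rose (median -0.27), or 53.3% against 39.8% (18.7% higher, 21.1% lower). Over 16 alternatives the falls ran from 5 to 8 with KB02 and from 4 to 7 with KB05, and the rises from 1 to 2 with each. NT5E, the ectonucleotidase CD73, fell with KB02 from 4.25 ± 0.48 to 1.20 ± 0.21 CPM (log2 difference -1.81 ± 0.26, adjusted p = 7.46e-07). IGFBP3, which binds insulin-like growth factors, fell with KB02 from 1132 ± 77.9 to 566 ± 29.6 CPM (-1.0 ± 0.07, adjusted p = 4.99e-13), and the kinase gene NUAK2 from 15.1 ± 0.33 to 9.30 ± 0.54 CPM (-0.70 ± 0.11, adjusted p = 5.66e-06).

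With KB05 the largest changes of that list were a rise and falls. GADD45A, a stress-inducible growth arrest gene, rose 2.70-fold, from 30.5 ± 0.87 to 82.3 ± 1.69 CPM (adjusted p = 1.35e-15), and 1.61-fold with KB02 (adjusted p = 5.94e-09). ARHGEF17, a guanine nucleotide exchange factor, fell from 8.26 ± 0.97 to 4.73 ± 1.12 CPM (-0.79 ± 0.18, adjusted p = 0.000538), and DOCK5, a Rac exchange factor, from 32.4 ± 2.95 to 20.4 ± 1.91 CPM (-0.67 ± 0.09, adjusted p = 1.2e-06). F3, which encodes tissue factor and was picked after its values were seen, fell with KB02 (-0.50 ± 0.13, adjusted p = 0.00221) and rose with KB05 (0.36 ± 0.13, adjusted p = 0.0242). Its levels were 15.4, 11.8 and 12.5 CPM in DMSO, 9.31, 9.10 and 9.59 in KB02 and 17.6, 19.6 and 13.9 in KB05, so KB05 overlapped DMSO. The KB05 call of F3 was lost with DESeq2 (0.0534) and on leaving out DMSO replicate 2 or 3 or KB05 replicate 1 or 2 (adjusted p of 0.135, 0.0784, 0.0801 and 0.174), and its adjusted p over 16 alternatives ran from 0.00485 to 0.174.

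Of the Hippo kinase module, the kinases, adaptors and upstream cadherins that control LATS activity, 7 of 18 rose and 3 fell with KB02, or 55.6% called against 46.1% of all genes. With KB05 2 rose and 4 fell, or 33.3% against 39.8%, below the share of all genes. FAT4, an atypical cadherin, rose from 2.6 ± 0.64 to 7.51 ± 1.08 CPM with KB02 (1.53 ± 0.19, adjusted p = 8.96e-08) and to 4.47 ± 0.65 with KB05 (0.78 ± 0.20, adjusted p = 0.00285). SAV1, the scaffold of the kinases, rose with KB02 (0.44 ± 0.09, adjusted p = 8.55e-05) and with KB05 (0.37 ± 0.09, adjusted p = 0.00097). The kinase gene STK4 (MST1) rose with KB02 (0.44 ± 0.12, adjusted p = 0.00256) and had a log2 difference of -0.07 ± 0.12 with KB05 (adjusted p = 0.678). FRMD6 fell with KB02 from 2.92 ± 0.52 to 1.60 ± 0.41 CPM (adjusted p = 0.0114), a call lost on leaving out DMSO replicate 1 (0.0707) or KB02 replicate 2 (0.0669). Its adjusted p ran from 0.008 to 0.0707 over 16 alternatives. WWC2 fell with KB05 from 6.36 ± 0.66 to 4.73 ± 0.33 CPM (-0.42 ± 0.16, adjusted p = 0.0392). Its adjusted p ran from 0.0325 to 0.155 over 16 alternatives and was not below 0.05 in 9 of them. Among these were leaving out any of DMSO replicates 1 and 3 and KB05 replicates 1 and 2 (0.155, 0.0566, 0.103 and 0.105).

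Of the junction and adaptor partners, 4 of 14 rose and 4 fell with KB02, or 57.1% called against 46.1% of all genes. With KB05 2 rose and 2 fell, or 28.6% against 39.8%, below the share of all genes. SCRIB, a polarity scaffold, rose with KB02 from 247 ± 20.6 to 391 ± 10.2 CPM (0.66 ± 0.07, adjusted p = 2.06e-09). With KB05 the polarity gene DLG1 fell from 46.5 ± 1.34 to 27.2 ± 1.14 CPM (-0.78 ± 0.08, adjusted p = 3.15e-09) and TJP1, which encodes a tight-junction scaffold, fell by 0.35 ± 0.09 (adjusted p = 0.00199). With KB02 TJP1 rose, by 0.36 ± 0.09 (adjusted p = 0.000845). CRB3, which anchors an apical polarity complex, fell with KB02 (-0.41 ± 0.08, adjusted p = 0.000162) and rose with KB05 by 0.31 ± 0.08 (adjusted p = 0.00344). The KB05 call of CRB3 ended without KB05 replicate 1 (adjusted p = 0.0554), with a range of 0.0017 to 0.0554 over 16 alternatives.

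Paralogs of the genes above, of which LATS1, AMOTL1, LIMD1 and WTIP were picked after values were seen, gave mixed results. AMOT, related to AMOTL2, fell with KB02 from 13.9 ± 2.1 to 8.91 ± 1.24 CPM (-0.64 ± 0.13, adjusted p = 0.000178), while AMOTL1 did not pass the test in either comparison (adjusted p = 0.812 with KB02 and 0.361 with KB05). LATS1 had a log2 difference of 0.33 ± 0.12 with KB02 (adjusted p = 0.0205) and -0.03 ± 0.12 with KB05 (adjusted p = 0.863). The KB02 call of LATS1 was lost without DMSO replicate 3 (adjusted p = 0.155, range 0.00132 to 0.155 over 16 alternatives), and an antisense gene that overlaps LATS1 held 90, 167 and 225 reads over the 3 groups. LIMD1 and WTIP, the LIM proteins related to AJUBA, did not pass the test with either compound, with log2 differences between -0.44 and -0.03. CCN3, of the same family as CCN1 and CCN2, fell with KB02 from 6.35 ± 0.54 to 4.06 ± 0.47 CPM (-0.64 ± 0.17, adjusted p = 0.00221) and was at 4.89 ± 0.047 CPM in KB05 (adjusted p = 0.0764). The other CCN genes CCN4, CCN5 and CCN6 had 4, 57 and 29 reads over all libraries and were not tested.

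**Figure D4:**
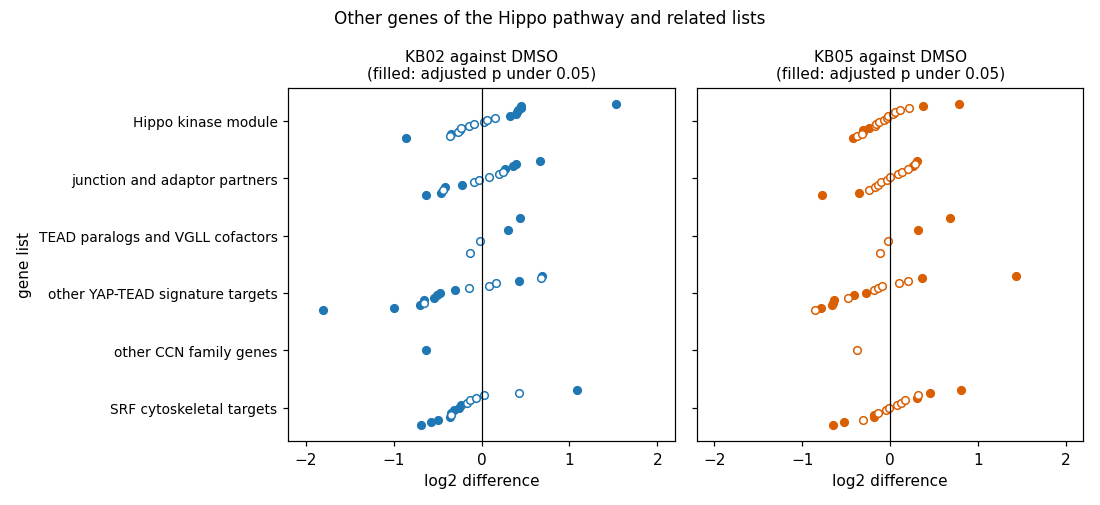
Log2 difference from DMSO of the tested genes of 6 lists, ordered within each list (filled points: adjusted p under 0.05). Of the other YAP signature targets 8 of 15 fell and 2 rose with KB02, and 6 fell and 2 rose with KB05. Of the SRF cytoskeletal targets 8 of 15 fell and 1 rose with KB02, and 4 fell and 3 rose with KB05. Of all genes tested 23.3% fell and 22.8% rose with KB02, and 21.1% fell and 18.7% rose with KB05.

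Of 15 tested cytoskeletal genes known as targets of SRF, a factor that also acts on CCN1 and CCN2, 8 fell and 1 rose with KB02 (median -0.26), or 60.0% called against 46.1% of all genes (22.8% higher, 23.3% lower). With KB05 4 fell and 3 rose (median -0.0088), or 46.7% against 39.8%. With library size as the only scaling 6 fell and 2 rose with KB02, and 2 fell and 3 rose with KB05. Of the calls over all genes, 63.8% were then higher with KB02 and 50.1% with KB05, beside 49.5% and 46.9% with TMM factors. The actin gene ACTG1 fell with KB02 from 2028 ± 55.2 to 1257 ± 45.8 CPM (-0.69 ± 0.07, adjusted p = 5.2e-10), and VCL, which encodes vinculin, from 93.3 ± 8.44 to 62.6 ± 2.32 CPM (-0.58 ± 0.07, adjusted p = 9.66e-08). TAGLN, an actin-binding protein, went apart from them: it rose with KB02 from 9.90 ± 2.17 to 21.1 ± 3.90 CPM (1.09 ± 0.14, adjusted p = 4.28e-07) and fell with KB05 to 6.27 ± 0.45 CPM (-0.65 ± 0.16, adjusted p = 0.00184). With KB05 ACTB rose from 3867 ± 251 to 6777 ± 320 CPM (0.81 ± 0.07, adjusted p = 2.03e-10) and the myosin gene MYH9 fell by 0.53 ± 0.07 (adjusted p = 8.36e-07). ACTB and ACTG1 are similar to each other and to many pseudogenes, so their reads may be shared.

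At the same dose, 19 of the 66 pathway genes were higher and 15 lower with KB05 than with KB02, or 51.5%, against 40.0% of all genes tested (21.8% higher, 18.2% lower). Without scaling factors the balance turned, with 15 higher and 20 lower. That of all genes turned as well, from 54.4% of the calls higher to 37.4%. The SRF cytoskeletal targets had 9 of 15 higher and 1 lower with KB05 (median 0.35, beside 0.06 over all genes), and the lower gene was TAGLN (-1.74 ± 0.15, adjusted p = 5.53e-10). ACTG1 was 1.99-fold higher with KB05 (adjusted p = 5.63e-13). Of the YAP signature targets 5 were higher and 3 lower, with NT5E higher by 1.16 ± 0.27 (adjusted p = 0.000757), F3 by 0.87 ± 0.13 (adjusted p = 2.66e-06) and DOCK5 lower by 0.37 ± 0.09 (adjusted p = 0.00221). In the kinase module none was higher and 5 of 18 were lower, or 27.8% called against 40.0% of all genes, below that share. FAT4 was among the lower genes (-0.75 ± 0.18, adjusted p = 0.0014). The number lower was 8 with library size only and 3 without KB05 replicate 2. TEAD3 differed by 0.00 ± 0.13, with a 95% interval of -0.27 to 0.27.

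For 4 of the 9 genes, the genes with the most similar levels over the 9 libraries were named. By Pearson correlation of log2 CPM among 13213 genes with a mean log2 CPM of at least 1, CCN1 was most like NR4A1 (0.995), HEY1 (0.995) and ID3 (0.994). CCN2 was most like FLRT3 (0.994), VMP1 (0.993) and AMIGO2 (0.993). NR4A1, an immediate-early nuclear receptor, was at 37.9 ± 3.15 CPM in DMSO, 55.1 ± 3.16 in KB02 and 550 ± 55.1 in KB05. FLRT3, an adhesion protein, was at 13.2 ± 1.24, 3.30 ± 0.13 and 29.9 ± 3.59 CPM (SD, n = 3). AMOTL2 was most like KXD1 (0.986), PFDN1 (0.983) and SIK1 (0.979), and ANKRD1, with few reads, like GCDH (0.917), GTF2H3 (0.916) and LYSMD4 (0.897). The 9 libraries fall into 3 groups, so such values mostly reflect 3 group means and are a description.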

How the data were processed

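Messenger RNA was measured in 9 libraries of 22Rv1 cells. The authors deposited estimated counts per gene, not scaled to depth, and the submitters' processing notes name Salmon 1.3.0, DESeq2 1.30.1 and builds hg38 and GRCh38.p13. The sources used here do not give the annotation release or strandedness. Samples of the series taken at 8 h were not analysed here. Estimated counts were rounded to whole numbers. Symbols came from a name table that matched 60064 of 60232 identifiers without version and gave 41714 a symbol.

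Genes were kept by filterByExpr (minimum count 10) and scaled by TMM. A quasi-likelihood model (edgeR 4.0.16, R 4.3.3) with 3 groups and no block was fitted to 9 libraries over 18379 genes, with Benjamini-Hochberg adjustment over all of them and a threshold of 0.05. The SE is the log2 difference divided by the square root of F. "Rose", "fell" and adjusted p refer to this test. Between replicates the chi-square per degree of freedom was 4.56 to 10.8, so all libraries were counted separately. The labels say biological triplicate and do not describe separate cultures further. The p-values thus set group differences against the spread between these samples, which may not be the spread between separate cultures. The 9 genes, the lists and the tests were chosen with earlier results of these data known. From each of 6 lists the text names, per compound, the 3 called genes of largest absolute log2 difference whose mean log2 CPM was 1 or more; paralogs of the 9 genes (LATS1, AMOTL1, LIMD1, WTIP, TEAD3) and F3 were added after values were seen. A gene that this rule would name is not reported here. Genes most like 4 of the 9 were named by correlation. Alternatives were RLE, upper-quartile or no factors, no filter, DESeq2 1.42.0, a replicate block, only the groups compared, and each library left out.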

Additional observations from a re-analysis of the deposited data

How the results depend on the processing

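Each value was recomputed under 16 alternatives. The called genes stayed within 1.5 times the main count (8470, 7321 and 7346), and so did the pathway calls, which ran from 33 to 40 for KB02 against DMSO, 21 to 28 for KB05 against DMSO and 30 to 36 for KB05 against KB02. Of 432 values of the 9 genes under an alternative, 418 moved by less than the SD between replicates. The median log2 difference of the 9 genes was less stable: 9 of its recomputed values moved by at least the SD of the median between replicates. The log2 differences of CCN1 and CCN2 kept their sign in all comparisons. Those of AMOTL2 (KB05 against KB02) and of TEAD1 (KB02 against DMSO), ANKRD1 and AJUBA (KB05 against DMSO) and AJUBA (KB05 against KB02) changed sign in 1 or more alternatives. When no scaling factors were used, the all-gene median shifted from 0.00 to 0.13 for KB02 against DMSO and from 0.06 to -0.06 for KB05 against KB02. The share of calls that were higher went from 49.5% to 63.8% and from 54.4% to 37.4%. The median of the 9 genes then was 0.032 (KB02 against DMSO) and -0.0042 (KB05 against KB02), and 0.070 for KB05 against KB02 in a fit of those groups only. As single libraries were left out, that median ran from -0.12 to 0.083 (KB02 against DMSO), 0.12 to 0.30 (KB05 against DMSO) and 0.023 to 0.14 (KB05 against KB02); the cause was not tested. Of the tested genes, sign changes came only in differences that were not called. Values of opposite sign were, with RLE size factors, -0.028 for TEAD3 in KB05 against KB02; with upper-quartile factors, 0.023 for LIMD1 in KB02 against DMSO, 0.032 for TEAD3 in KB02 against DMSO, 0.011 for TEAD3 in KB05 against DMSO and -0.021 for TEAD3 in KB05 against KB02. With library size only they were 0.053 for AMOTL1 in KB02 against DMSO, 0.10 for LIMD1 in KB02 against DMSO, 0.11 for TEAD3 in KB02 against DMSO and -0.11 for TEAD3 in KB05 against KB02. For TEAD3 in KB05 against KB02 the value was -0.028 with DESeq2 and -0.041 with only the 2 groups compared. As single libraries were left out, these uncalled differences ran from -0.016 to 0.094 for ACTB in KB02 against DMSO, from -0.13 to 0.069 for LIMD1 in KB02 against DMSO, from -0.12 to 0.13 for TEAD3 in KB02 against DMSO, from -0.14 to 0.12 for LATS1 in KB05 against DMSO, from -0.080 to 0.074 for TEAD3 in KB05 against DMSO, from -0.24 to 0.074 for AMOTL1 in KB02 against DMSO, from -0.15 to 0.097 for TEAD3 in KB05 against KB02, from -0.0026 to 0.15 for WWC2 in KB02 against DMSO, from -0.17 to 0.46 for WTIP in KB05 against KB02 and from -0.62 to 0.017 for WTIP in KB05 against DMSO.

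Among 96 differences of named list genes, 1422 of 1536 recomputed values kept their sign and their side of the threshold, 71 lost a call, 11 gained one and 32 changed sign. Whether replicate numbers pair the samples was undecided: deviations of same-numbered libraries correlated between -0.04 and 0.08 across genes, no pair above 0.1, while 7 of 9 libraries correlated best with a library of their own number. With the replicate number as a block, 8600, 7476 and 7518 genes were called in the 3 comparisons. ANKRD1 had 3 to 26 reads per library.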
